A study of Tachysurus fulvidraco x Tachysurus vachelli with 6 samples.

Results

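The genes described are adipor2, which encodes an adiponectin receptor, and LOC113635862, whose protein description is peroxisome proliferator-activated receptor gamma coactivator 1-beta-like (hereafter the PGC-1beta-like gene). They were taken by gene name and are 2 of the 2451 genes with complete rows in the deposited table. They were selected on their higher counts in the 16-h transport group in these same libraries (chosen by edgeR's call), so their own difference between groups is given as a description without a test. The study sequenced skin mRNA of 3 control libraries and 3 libraries of fish that had gone through 16 h of simulated transport. All fish were juveniles of the hybrid between Tachysurus fulvidraco females and P. vachellii males, and the skin came from the left side behind the dorsal fin. Control fish, labelled untreated, stayed in a recirculating system. Transported fish were starved beforehand and shaken in sealed bags of water and oxygen. The paper describes the 3 libraries of each group as biological replicates. The sources used here do not say whether the control fish were starved as well, nor how many fish made up a library. Whether libraries shared a transport bag is not stated either. The p-values therefore measure the spread between these libraries, which may be partly technical.

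AdipoR2 is a membrane receptor with several transmembrane helices that, in mammals, binds the fat-derived hormone adiponectin, acts through ceramidase activity and PPAR-alpha, and favours fatty acid oxidation. PGC-1beta is a coactivator without DNA-binding specificity of its own: in mammals it docks on nuclear receptors such as the estrogen-related receptors and raises the transcription of mitochondrial and fatty acid oxidation genes. Teleost skin is a living mucosal epithelium without a keratinized outer layer, and lipids are part of its barrier.

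The table held between 3632651 and 4487002 counts per library, which was 12.03% to 12.5% of the mapped reads, so the values cover a part of the transcriptome. Control replicate 1 stood apart in its scaling: the TMM factor, which corrects for a few abundant transcripts taking a large share of the reads, was 0.712 there and 0.968 to 1.17 in the other libraries. With these factors the median log2 fold change of the 1620 genes tested was -0.02, and without them it was 0.27.

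The adipor2 gene (gene ID 113635081) lies on the plus strand of scaffold NW_020848179.1 from 67774 to 110474, in the coordinates of the deposited table, and has 4 transcript records. Its FPKM (fragments divided by transcript length and by library depth) was 11.3, 12.98 and 18.3 in controls 1, 2 and 3. In the transport libraries 1, 2 and 3 it was 42.3, 37.2 and 41.1. Every transport library was above every control library, and the lowest transport value was 2.03 times the highest control value. The mean of the control group was 14.2 ± 3.64 (SD, n = 3) and that of the transport group 40.2 ± 2.68 (SD, n = 3), a 2.83-fold difference. These values rest on 2330, 2143 and 3287 reads in the control libraries and on 7121, 6840 and 8304 reads in the transport libraries.

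The PGC-1beta-like gene (gene ID 113635862) lies on the plus strand of scaffold NW_020848201.1 from 5140198 to 5178881 and has 2 transcript records. Its FPKM was 1.06, 1.94 and 2.36 in controls 1, 2 and 3. In the transport libraries 1, 2 and 3 it was 7.27, 6.35 and 7.25. The groups again did not overlap, and the lowest transport value was 2.69 times the highest control value. The mean of the control group was 1.79 ± 0.664 (SD, n = 3) and that of the transport group 6.96 ± 0.526 (SD, n = 3), a 3.89-fold difference. The reads behind them numbered 422, 619 and 820 in the control libraries and 2367, 2256 and 2825 in the transport libraries. As skin is a mixture of cells, a change in the number of cells that carry a transcript and a change in the transcript per cell cannot be told apart.

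**Figure D1:**
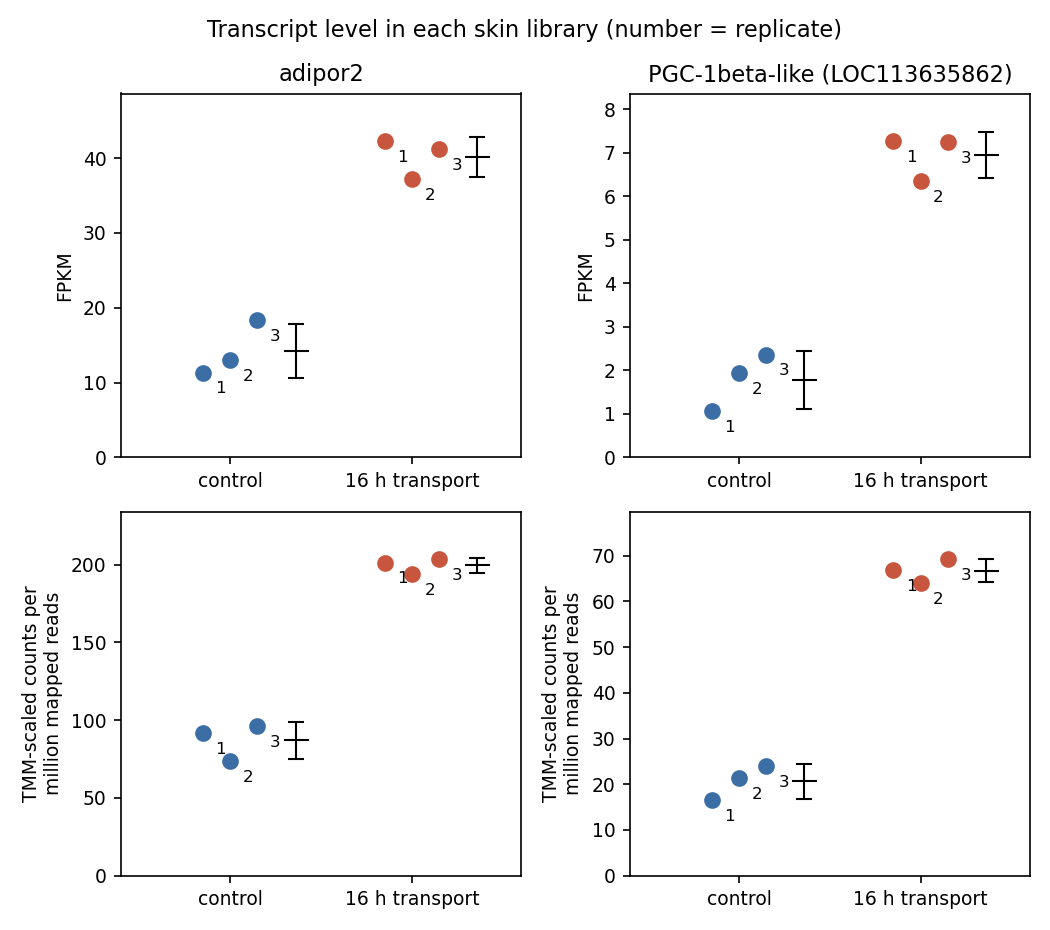
Transcript level of adipor2 (left) and the PGC-1beta-like gene (right) in each library, as FPKM (top) and as TMM-scaled CPM, counts scaled to the mapped reads (bottom). Points are libraries with the replicate number beside them, and the bar is the mean ± SD of 3 libraries. On both scales every transport library sits above every control library; for adipor2 the FPKM runs from 11.3 to 18.3 in controls and from 37.2 to 42.3 after transport.

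With TMM factors applied to the counts, adipor2 stood at 91.4, 73.8 and 96.3 CPM (counts scaled to the mapped reads of the library) in controls 1, 2 and 3. It stood at 201, 194 and 204 CPM in the transport libraries 1, 2 and 3. On this scale control replicate 2 and not control replicate 1 was the lowest library, while the gap between the groups was almost as wide as in FPKM, at 2.02-fold. The PGC-1beta-like gene stood at 16.6, 21.3 and 24.0 in the control libraries and at 66.9, 64.1 and 69.2 in the transport libraries, with a gap of 2.67-fold. The log2 fold changes from the fit of edgeR over all genes were 1.20 for adipor2 and 1.69 for the PGC-1beta-like gene, or 2.29-fold and 3.23-fold. They were smaller than the log2 ratios of mean FPKM, which were 1.501 and 1.96, since FPKM carries no TMM factors. Without those factors, where the median gene stood at 0.27, the fit gave 1.499 for adipor2 and 1.96 for the PGC-1beta-like gene.

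The quasi-likelihood test of edgeR called 0.37% of the genes tested higher after transport, with the adjusted p required to be under 0.05, and both genes are among those calls, by which they were chosen. Groups that did not overlap with transport higher were much more frequent, at 24.1% of genes in FPKM and 12.9% in TMM-scaled counts. Ordered by log2 fold change from the highest, the PGC-1beta-like gene was at place 29 and adipor2 at place 56 of 1620. Most genes with a larger difference were thus not among the calls. Per unit of transcript length, adipor2 was an abundant transcript, with a mean FPKM above that of 88.1% of the genes tested. The PGC-1beta-like gene was near the middle, above 44.3% of them. These means run over all 6 libraries and so include the transport libraries, for whose higher values both genes were chosen. In the control libraries alone the means were lower, at 14.2 for adipor2 and 1.79 for the PGC-1beta-like gene.

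**Figure D2:**
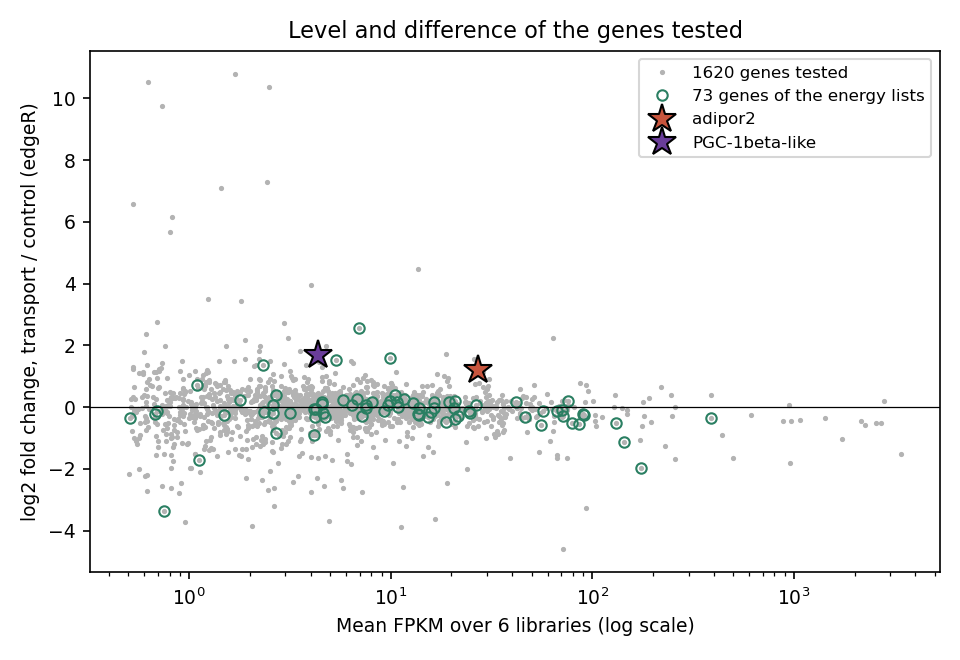
Mean FPKM over the 6 libraries (log scale) against the log2 fold change of transport over control in edgeR, for the 1620 genes tested. Stars mark adipor2 at a log2 fold change of 1.20 and the PGC-1beta-like gene at 1.69, and open circles mark the 73 genes of the energy lists, most of which lie near 0.

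The libraries of the transport group were closer to each other than those of the control group in both genes. The coefficient of variation of FPKM in adipor2 was 25.6% in control and 6.65% in transport libraries, and that of the PGC-1beta-like gene was 37.2% and 7.56%. Over all genes tested the medians were 33.0% and 15.3%, and 84.4% of genes varied less among the transport libraries, so the direction of this contrast was that of most genes. Among the transport libraries, replicate 2 was the lowest for both genes. The FPKM of adipor2 was 10.7, 6.69 and 7.75 times that of the PGC-1beta-like gene in controls 1, 2 and 3, and 5.81, 5.86 and 5.68 times in the transport libraries. This ratio, which needs no scaling between libraries, was higher in every control library than in any transport library and nearly constant after transport.

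The count of a gene divided by its FPKM depends on the transcript length that the authors' quantification assigned to it, and it showed little difference between libraries. The ratio of unscaled CPM to FPKM varied 1.05-fold over the 6 libraries in both genes, which is small beside their differences between groups. At its end adipor2 overlaps the opposite-strand locus LOC113635082 by 429 bases. That locus has a non-coding transcript record and an FPKM of 0 to 0.0495. The sources used here do not state whether the libraries kept the strand, so reads of the overlap cannot be assigned to either strand. On the other side, the nearest gene in the table is the F-box/LRR-repeat protein 14 gene LOC113635084, with a log2 fold change of 0.81 (adjusted p = 0.365 in edgeR's test). Its FPKM was 3.01, 1.27 and 2.67 in control and 5.24, 4.91 and 5.94 in transport libraries. Its groups thus did not overlap and transport was higher, as in 24.1% of all genes.

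Beside the PGC-1beta-like gene, pde6a, a phosphodiesterase gene of rod photoreceptors, lies 1149 bases downstream on the other strand and had an FPKM of 0 to 0.0255. On its other side, arhgef37, a guanine nucleotide exchange factor gene, had overlapping groups and a log2 fold change of 0.39 (adjusted p = 0.524 in edgeR's test). Neither of these tested neighbours passed, and the other neighbours were below the minimum FPKM for the test. The paralogs adipor1 and PGC-1alpha and the hormone adiponectin were not analysed here.

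The genes with profiles most like each of the pair were sought over the 6 libraries. The measure was the root mean square difference of log2(FPKM + 0.5), with each gene centred on its own mean, and smaller values are more alike. Out of 1619 other genes tested, adipor2 was the second nearest to the PGC-1beta-like gene, and the PGC-1beta-like gene was the third nearest to adipor2, at a difference of 0.18. Both were chosen for being higher after transport in these same libraries, so part of this closeness follows from the choice. The median difference over genes was 0.67 from adipor2 and 0.78 from the PGC-1beta-like gene. On TMM-scaled counts adipor2 took place 4, but the PGC-1beta-like gene fell to place 38, so the closeness from that side depended on the scaling.

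Nearest to adipor2 was the calcium-binding protein 39-like gene LOC113636062, at 0.15. In mammals this protein is the scaffold of the LKB1 kinase complex, which activates AMP-activated kinase. Its FPKM was 3.73, 3.43 and 5.19 in the control libraries and 12.6, 9.22 and 10.5 in the transport libraries, with a log2 fold change of 1.06 (adjusted p = 0.116 in edgeR's test). Others near adipor2 were the low-density lipoprotein receptor-like gene LOC113634480, dph3 of diphthamide synthesis, and smap2, which encodes an Arf GTPase-activating protein of vesicle traffic. LOC113634480 was also among the 5 nearest of the PGC-1beta-like gene, with FPKM of 0.594, 1.08 and 1.77 in control and 4.90, 3.04 and 3.74 in transport libraries.

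Nearest to the PGC-1beta-like gene was LOC113635322, described as elongation of very long chain fatty acids protein 4-like, an enzyme that in mammals lengthens the fatty acids of skin ceramides. Its difference was 0.14, and its FPKM was 1.14, 2.59 and 3.51 in control and 8.07, 8.11 and 8.53 in transport libraries. The log2 fold change was 1.53 (adjusted p = 0.0900 in edgeR's test). The gene fa2h, which encodes the fatty acid 2-hydroxylase that hydroxylates sphingolipid fatty acids, followed adipor2 with FPKM of 0.251, 0.860 and 1.54 in control and 4.23, 2.81 and 3.64 in transport libraries. foxe1, a forkhead transcription factor gene, stood at 1.68, 2.87 and 4.10 in control and at 12.3, 6.81 and 10.2 in transport libraries. In all 7 of these other genes the groups did not overlap, which the likeness to the chosen genes leads to. Over all genes tested, 24.1% had FPKM groups that did not overlap with transport higher. edgeR called 0 of the 7, with adjusted p from 0.0749 to 0.220, while DESeq2 called 6 and limma 0. In edgeR 7 had an unadjusted p below 0.05. The likeness leads to these small p-values and calls as well. Among all genes, 7.72% were higher with an unadjusted p of edgeR below 0.05, and DESeq2 called 4.39% higher.

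**Figure D3:**
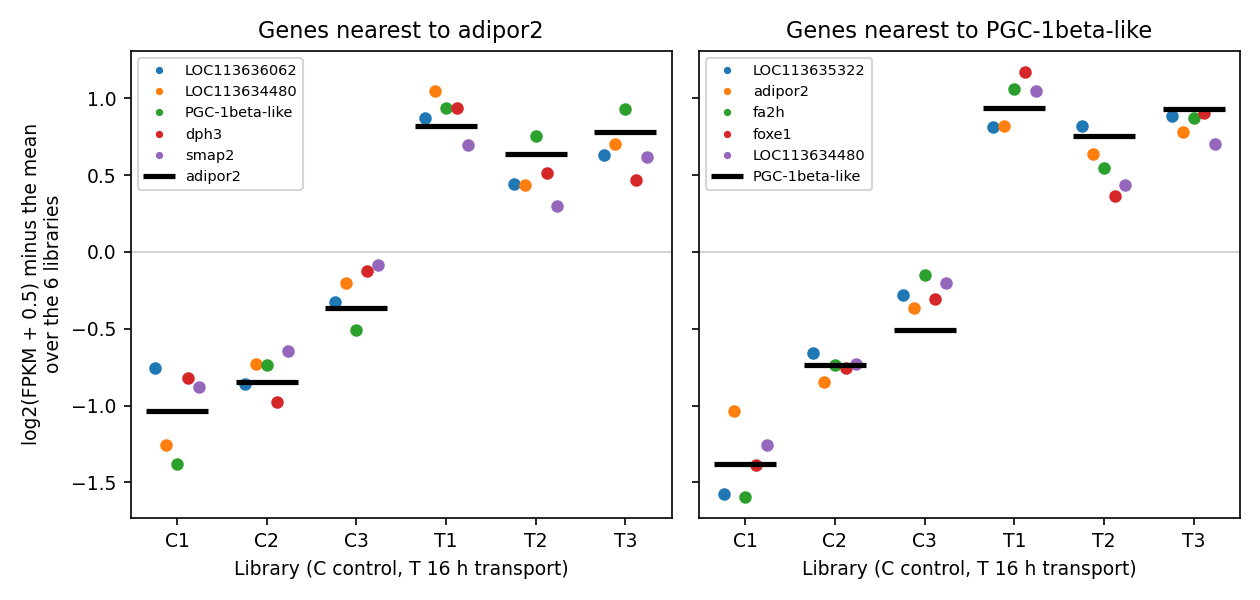
log2(FPKM + 0.5) minus each gene's mean over the 6 libraries, for adipor2 (left, black bars) and the PGC-1beta-like gene (right, black bars) and the 5 genes nearest to each (points), in control (C) and transport (T) replicates 1 to 3. The nearest genes are below 0 in every control library and above 0 in every transport library; LOC113636062 is nearest to adipor2 and LOC113635322 to the PGC-1beta-like gene.

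To see how other genes around the pair stood, 13 lists were read from the same fit, with both genes left out. They are called energy lists here, but they include a glucocorticoid response list. The lists taken from pathway annotation also hold immune signalling genes. The table held 80 list genes, of which 73 were tested. Over the lists 1 gene rose and 0 fell in edgeR's test (adjusted over all genes), where 0.37% of all genes rose and 0.247% fell. The gene that rose was zbtb16, a transcriptional repressor of the glucocorticoid response list, with a log2 fold change of 2.57. It lost the call without control replicate 1 or 2 and without any one of the transport replicates. Of the same list, with 4 genes tested, LOC113636152 is described as TSC22 domain family protein 3-like, which in mammals is a leucine zipper protein induced by glucocorticoids. Its FPKM was 165, 162 and 217 in the control libraries and 117, 106 and 92.5 in the transport libraries, so the groups did not overlap and transport was lower. In FPKM, 60 of the 1620 genes tested were lower without overlap. The log2 fold change of LOC113636152 was -1.12 (adjusted p = 0.0719 in edgeR's test and 0.140 in limma's), and DESeq2 called it lower (adjusted p = 6.4e-06). Apart from zbtb16, the other tested genes of this list had overlapping groups. Nominally, that is by an unadjusted p of edgeR under 0.05, 3 list genes were higher and 10 lower, where 7.72% of all genes were higher and 9.14% lower. DESeq2 called 3 list genes higher and 6 lower, where it called 4.39% of all genes higher and 5.13% lower. limma called zbtb16 higher and 0 list genes lower, where it called 0.617% of all genes higher and 0.123% lower. The median log2 fold change of the 73 genes was -0.12, beside -0.02 for all genes tested. Without TMM factors these medians were 0.23 and 0.27, so the sign of the list median went with the scaling.

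On the adiponectin side, 4 of 5 listed genes were tested and edgeR called 0, with 1 nominally lower, 1 called lower by DESeq2 and 0 by limma. Among all genes, 9.14% were nominally lower and DESeq2 called 5.13% lower. The gene paqr9, which belongs to the same receptor family as adipor2, had FPKM of 1.22, 2.27 and 2.83 in control and 3.83, 2.63 and 3.45 in transport libraries. Its groups overlapped, and its log2 fold change was 0.38 (adjusted p = 0.406 in edgeR's test). asah1, which encodes the lysosomal acid ceramidase, stood at 30.6, 50.6 and 58.2 in control and at 54.0, 34.2 and 49.1 in transport libraries, and LOC113633918, described as the beta-1 subunit of AMP-activated protein kinase, had a log2 fold change of -0.25. The nominally lower gene was c1qtnf4, an adiponectin-related secreted protein gene, where control replicate 2 alone was high. Its FPKM was 0.578, 3.35 and 0.0926 in control and 0.118, 0.159 and 0.185 in transport libraries.

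Of the PGC-1 family and its partners, the table held ncor1, a nuclear receptor corepressor gene, and foxo4, a forkhead factor gene of the insulin pathway. Their log2 fold changes were 0.18 (adjusted p = 0.701) and -0.03 (adjusted p = 0.909) in edgeR's test. Of this list edgeR, DESeq2 and limma called 0 of 2, and 0 differed nominally. The estrogen-related receptors, which PGC-1beta docks on, were not analysed here. Of 11 tested genes annotated to PPAR signalling, edgeR, DESeq2 and limma called 0. Nominally 2 were lower and 0 higher, where 9.14% of all genes were lower and 7.72% higher. Among them was the nuclear receptor gene nr1h3 (LXR-alpha), at a log2 fold change of 0.25 (adjusted p = 0.367 in edgeR's test). Its groups did not overlap and transport was higher, as in 24.1% of all genes tested.

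Fatty acid oxidation genes are known in mammals as targets of the PGC-1 coactivators. Of 7 tested edgeR called 0, with 1 nominally lower, 0 nominally higher and 0 calls by DESeq2 and limma. Among all genes, 9.14% were nominally lower. With 0.37% of all genes called higher and 0.247% lower by edgeR, a count of 0 in so short a list is near the background. Among them LOC113636660, described as the liver isoform of carnitine O-palmitoyltransferase 1, the gate of mitochondrial fatty acid uptake, had FPKM of 9.02, 13.2 and 15.6 in control and 15.1, 14.3 and 15.9 in transport libraries. Its log2 fold change was -0.03 (standard error 0.12). acsl4, a long-chain acyl-CoA ligase gene, was the nominally lower one, at a log2 fold change of -0.90 (adjusted p = 0.242 in edgeR's test).

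For the respiratory chain and ATP synthase, 11 genes were tested and edgeR, DESeq2 and limma called 0, with 0 nominal differences in edgeR. Their log2 fold changes ran from -0.51 to 0.21 with TMM factors, with a median of -0.12 that became 0.23 without them. atp5f1a, the catalytic core alpha subunit gene of ATP synthase, stood at an FPKM of 404, 489 and 274 in control and 340, 449 and 375 in transport libraries, so that the groups overlapped.

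In lipid storage and synthesis 3 genes were tested and edgeR called 0, with LOC113635322 nominally higher and called by DESeq2, and 0 called by limma. The other tested members were elovl7, a fatty acid elongase gene (log2 fold change 0.40, standard error 0.37), and mgll, the monoglyceride lipase gene (0.11, standard error 0.22). Among all genes, 7.72% were nominally higher and 9.14% lower, and DESeq2 called 4.39% higher and 5.13% lower. Of 4 insulin and TOR genes edgeR called 0, limma 0 and DESeq2 1 lower, and 2 were nominally lower. These were the sestrin-3-like gene LOC113636123, a stress-responsive inhibitor of TOR (log2 fold change -0.84, adjusted p = 0.168 in edgeR's test), and akt2, the insulin-responsive kinase gene (-0.38, adjusted p = 0.290).

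The pathway annotation of the table places adipor2 in adipocytokine signalling, whose other 12 genes were all tested. edgeR called 0, with 3 nominally lower and 0 nominally higher, and DESeq2 called 1 (lower) and limma 0. Among all genes, 7.72% were nominally higher and 9.14% lower, and DESeq2 called 4.39% higher and 5.13% lower. The list gene with the smallest p was nfkbia, an inhibitor of NF-kappa-B, at a log2 fold change of -1.97 (adjusted p = 0.0644 in edgeR's test). It was the gene that DESeq2 called lower (adjusted p = 3.8e-07), while limma gave an adjusted p of 0.126. Of 22 genes annotated to insulin signalling or insulin resistance edgeR called 0, with 1 nominally higher and 3 nominally lower, while DESeq2 called 3, of which 1 was higher, and limma 0. The higher gene was LOC113633959, described as protein phosphatase 1 regulatory subunit 3C-B-like, which directs glycogen synthesis. Its FPKM was 3.86, 1.40 and 7.23 in control and 19.8, 12.7 and 14.4 in transport libraries (log2 fold change 1.59, standard error 0.54, adjusted p = 0.220 in edgeR's test), while DESeq2 called its copy LOC113633956 lower. The copies may share reads.

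**Figure D4:**
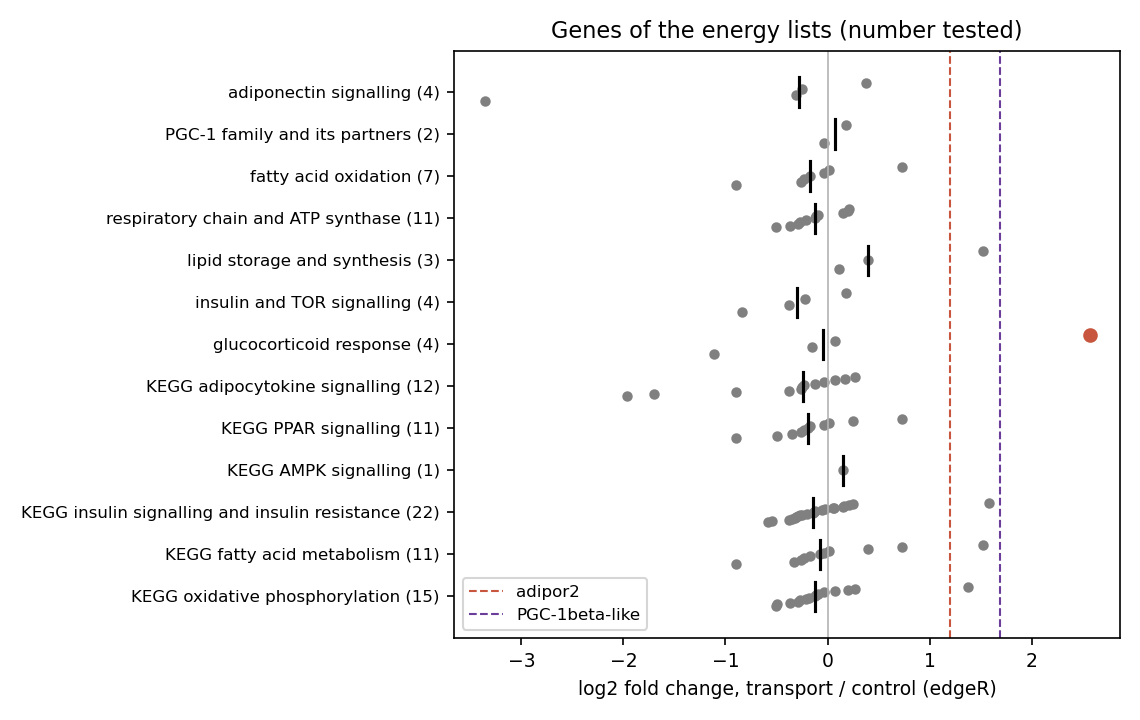
log2 fold change of transport over control (edgeR) of each tested gene in 13 energy lists, with the number tested in brackets. Black ticks are list medians, the red point is zbtb16 at 2.57, and dashed lines mark adipor2 (1.20) and the PGC-1beta-like gene (1.69). The dashed lines are to the right of every list median, as both genes were chosen for being higher. A gene can be in several lists.

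Marker genes of other cell types were read beside these results. No adipocyte, dermal fibroblast or red blood cell marker of the lists was matched in the table, so an adipocyte share could not be read. The 6 genes of the skeletal muscle list, among them a phosphorylase kinase subunit gene matched by its description, summed to an FPKM of 1737 to 9759 in control and 2144 to 3838 in transport libraries, with overlapping groups. The highest sum was that of control replicate 1, the library with the lowest TMM factor. There the myosin regulatory light chain gene LOC113636033 alone stood at 9075, beside 3018 and 1467 in controls 2 and 3. None of the other muscle list genes was highest in that library. Of the keratinocyte list the table held envoplakin (evpl), a plakin gene of stratified epithelia, and the plakophilin-3-like gene LOC113636783, a desmosome gene. Their summed FPKM was 8.78 to 23.4 in control and 37.3 to 50.3 in transport libraries, where most of the sum was evpl. The sums did not overlap and transport was higher. Among single genes tested, 24.1% had FPKM groups that did not overlap with transport higher. evpl alone stood at 3.93, 11.9 and 19.7 in control and 47.7, 30.4 and 41.7 in transport libraries, and did not pass edgeR's test (log2 fold change 1.54, adjusted p = 0.173), nor limma's (adjusted p = 0.126), while DESeq2 called it higher (adjusted p = 0.00815). LOC113636783 had overlapping groups, at 4.85, 3.78 and 3.73 in control and 2.55, 6.92 and 4.31 in transport libraries. The 4 mucous cell genes, of which galnt17 was at 0 in every library, summed to 88.1 to 245 in control and 127 to 217 in transport libraries. Most of that sum was agr2, a disulfide isomerase gene of mucus secretion. The mucin-15 gene muc15 had overlapping groups, at 26.9, 16.3 and 40.5 in control and 36.7, 29.8 and 29.4 in transport libraries. The mucin-2-like gene LOC113635236, which encodes a gel-forming mucin, had FPKM of 0.0384, 0 and 0.0223 in the control libraries. In the transport libraries it had 8.59, 0.347 and 5.66. Its groups thus did not overlap and transport was higher, as in 24.1% of all genes tested. With control values near 0, this gene passed the minimum FPKM for the test only through the transport libraries. edgeR did not call it (adjusted p = 0.101), nor did limma (adjusted p = 0.126), and DESeq2 called it higher (adjusted p = 1.27e-07). The pigment cell genes mlph and tyrp1 summed to 3.61 to 7.98 in control and 1.55 to 3.22 in transport libraries. The part of these cell types in the levels of the pair was not tested. Of the immune cell list only cd81 was matched, a widely expressed gene, with overlapping groups at 61.1 to 75.3 and 70.3 to 74.1.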

How the data were processed

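The authors isolated poly(A) RNA, sequenced paired reads, trimmed them with Cutadapt, aligned them with HISAT and quantified merged transcripts with StringTie; for versions, assembly version and strandedness nothing is stated in the sources used here. As genome, the methods name a human reference and the results that of yellow catfish; the deposited identifiers are of Tachysurus fulvidraco. The deposited table gives the authors' raw read counts and FPKM per gene. Of 2452 rows, 1 was incomplete and was dropped, and 12 columns of other samples were not used. Mapped reads stated in the paper served as library sizes. The 1620 genes whose FPKM averaged 0.5 or more were tested with edgeR 4.0.16 (quasi-likelihood, TMM factors, Benjamini-Hochberg) in R 4.3.3, and the standard error came from the fold change and F. DESeq2 1.42.0, limma 3.58.1, other scalings, filters and pseudocounts, a replicate block and leaving out each library were alternatives. The test was checked on simulated counts. The members, lists and rule for named genes (the nearest genes, the neighbours, and list genes called or of small p) were chosen with earlier results of these data known; list entries by description can be wrong. No 2 libraries of a group were duplicates (chi-square per gene 48.3 to 755). A result on another list gene is not reported here.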

Additional observations from a re-analysis of the deposited data

How the results depend on the processing

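Both genes stayed higher after transport under all 16 settings tried. They were chosen for being higher and their groups did not overlap, so this direction was largely fixed in advance. The log2 fold change of adipor2, 1.20 as given, was 1.499 without TMM factors and 1.495, 1.46 and 1.52 in limma with pseudocounts of 0.5, 1 and 0.1; that of the PGC-1beta-like gene, 1.69 as given, was 1.96 without TMM factors and 1.75, 1.54 and 1.97 in limma with the same pseudocounts. These settings carry no TMM factors. Leaving out 1 library gave 1.09 to 1.27 for adipor2 and 1.56 to 1.82 for the PGC-1beta-like gene. The genes called over the whole table numbered 10, but 154 in DESeq2 and 0 to 65 with 1 library left out (65 without control replicate 3, 0 without transport replicate 1 or 3, with 158 and 151 at an unadjusted p under 0.05 in edgeR). Calls in the energy lists numbered 1, but 9 in DESeq2 and 0 to 4 with 1 library left out (4 without control replicate 3). With TMM-scaled counts 3 of the 5 genes nearest to adipor2 and 4 of the 5 nearest to the PGC-1beta-like gene remained. The replicate block gave 1.20 and 1.71 for the genes. It gave 0 calls over the table (215 at an unadjusted p under 0.05 in edgeR) and 0 in the lists (9). Same-numbered libraries deviated together with correlations of -0.07 to 0.08, and differently numbered ones with -0.14 to 0.10. Pairing by number was thus not evident, though 3 libraries per group cannot exclude it. With 3 libraries per group, a difference that missed the test may still exist.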

Other observations

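Annotation terms held by the PGC-1beta-like gene were also followed to their other carriers, a choice made after values had been seen. Of the 4 other genes of mitochondrion organization, edgeR called 0 (0 at an unadjusted p under 0.05), and their log2 fold changes ran from -0.28 to 0.55. The highest was fxn, which encodes frataxin of iron-sulfur cluster assembly, with FPKM of 2.14, 2.62 and 2.25 in control and 4.57, 3.85 and 4.57 in transport libraries (log2 fold change 0.55, adjusted p = 0.307 in edgeR's test). The lowest of the 4 was LOC113635045, a dynamin-like gene of mitochondrial inner membrane fusion (-0.28, adjusted p = 0.329). These terms are all held by the PGC-1beta-like gene. Counts for other terms of this gene follow, and none was tested against the shares over all genes. Of 14 tested genes of receptor binding, 0 were nominally higher and 3 lower, and edgeR called 0. Of 79 in nucleic acid binding, 5 were nominally higher and 1 lower, and edgeR called 1 higher and 0 lower. Of 15 tested genes of transcription factor binding, 2 were nominally higher and 3 lower, and edgeR called 0. Of 22 in positive regulation of transcription by RNA polymerase II, 2 were nominally higher and 5 lower, and edgeR called 0. Of 266 genes of the nucleus term, edgeR called 1 higher and 2 lower. Among all genes, 7.72% were nominally higher and 9.14% lower, and edgeR called 0.37% higher and 0.247% lower. For adipor2, the other tested gene of the adiponectin-activated pathway term was csnk2b, a casein kinase subunit gene, at a log2 fold change of 0.00 (standard error 0.13).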
